A study of Mus musculus with 9 samples.

Results

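Aminoacyl-tRNA synthetases, the enzymes that load each transfer RNA (tRNA) with its amino acid, were followed across 9 RNA-sequenced cultures of mouse articular chondrocytes. The gene set was chosen by name and holds 36 of the 55471 genes in the files, namely 20 that encode the cytosolic enzymes and 16 that encode the mitochondrial ones. All 36 were found, and all 36 had enough counts to be among the 15362 genes tested.

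The cells were primary chondrocytes taken from the knee cartilage of wild-type mice on postnatal day 5, and they fell into 3 groups of 3 cultures. Ad-Control cells (called Control in the labels) were infected with a control adenovirus, Ad-OSCAR cells with an adenovirus that makes them express OSCAR (a collagen receptor), and the third group with Ad-OSCAR followed by 5-ASA (5-aminosalicylic acid, a drug used in inflammatory bowel disease). What the groups share, per the study's methods, is a plate coated with COLpep, a collagen peptide that OSCAR binds, while the cytokine IL-1β was left out. The labels give 3 days of culture, 2 h of infection at 400 MOI (multiplicity of infection) and 36 h before 5-ASA was added. The study's methods for the sequencing give other values for the culture time and the virus dose, and name no interval between infection and 5-ASA. The labels give no concentration of 5-ASA and do not say whether the cultures came from separate animals, so p-values measure the spread between these cultures, which may be technical. The model is a forced expression of OSCAR from a virus, and no group received Ad-Control with 5-ASA.

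In background terms, each synthetase recognises its amino acid and its tRNAs, and protein synthesis in the cytosol and in mitochondria relies on separate sets of them. Most cytosolic enzymes have a gene of their own (named without a suffix here, such as *Tars* for threonine), and the mitochondrial enzymes carry the suffix 2. *Gars* and *Kars* are known to serve both compartments from a single gene. Several cytosolic synthetase genes are known targets of ATF4, the transcription factor of the amino acid and stress response, together with genes of amino acid supply such as *Asns*. Chondrocytes make large amounts of collagen and other matrix proteins and so draw heavily on charged tRNA.

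Total counts lay between 19733448 and 28192740 per culture. *Oscar* itself was at 0.123 to 0.211 CPM (counts scaled to the library size) in Ad-Control cells, 6350 to 7110 CPM in Ad-OSCAR cells and 2950 to 3720 CPM after 5-ASA. The treated cells thus held less *Oscar* transcript than the untreated Ad-OSCAR cells (log2 fold change −0.97, edgeR's quasi-likelihood test, p after Benjamini-Hochberg adjustment 1.76e-08). The 10 chondrocyte markers (*Col2a1*, *Acan*, *Sox9* and others) were clearly expressed in Ad-Control cells, with a summed level of 42800 to 48600 CPM in Ad-Control, 3970 to 4380 CPM in Ad-OSCAR and 4790 to 5190 CPM after 5-ASA. With OSCAR 9 of the 10 fell and *Prg4* rose, and *Matn3* was under 1 CPM on average in both Ad-OSCAR groups. Summed macrophage and leukocyte markers moved the other way, from 15.6 to 18.3 CPM in Ad-Control to 35.5 to 36.2 CPM in Ad-OSCAR and 29.3 to 30.6 CPM after 5-ASA, while the defining genes *Ptprc*, *Adgre1* and *Itgam* stayed under 1 CPM in every culture. Summed fibroblast markers were at 17800 to 19000, 10500 to 11400 and 13000 to 14400 CPM in the same order. In bulk RNA, fewer cells of a type and less RNA per cell cannot be told apart, and what these shifts contribute to the synthetase values was not tested.

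Cytosolic synthetases were expressed well above their mitochondrial counterparts, *Lars* and *Lars2* excepted. On the length-corrected TPM scale (RSEM's transcript share, as deposited), mean levels in Ad-Control cells ran from 48.9 TPM for *Wars* to 253 TPM for *Sars*, with a median of 88.4 TPM over the 20 cytosolic genes. The enzymes for serine, glycine (*Gars*, 202 TPM), asparagine (*Nars*, 196 TPM) and glutamate with proline (*Eprs*, 152 TPM) led the order. Mitochondrial members ran from 1.31 TPM for *Mars2* to 91.0 TPM for *Lars2*, with a median of 13.9 TPM over 16 genes. Apart from *Lars2*, which is taken up further on, the highest of them was *Hars2* at 23.1 TPM, under the lowest cytosolic gene.

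The summed level of the cytosolic genes was lowest in Ad-OSCAR cells. It was 2141 ± 72.0 TPM (SD, n = 3) in Ad-Control cells, 1501 ± 31.4 TPM in Ad-OSCAR cells and 1764 ± 47.7 TPM after 5-ASA. The mitochondrial sum without *Lars2* was 190 ± 1.53, 196 ± 6.51 and 178 ± 4.0 TPM in the same order. The cytosolic sum thus moved by more than the spread between cultures in both steps. The mitochondrial sum in TPM was lower in treated (174 to 182 TPM) than in untreated Ad-OSCAR cultures (190 to 203 TPM) without overlap, but in CPM it stood at 261 ± 4.0, 267 ± 3.51 and 262 ± 2.52 in the 3 groups. *Sars*, *Gars* and *Nars* weigh most in the cytosolic sum of every group. *Eprs* comes next in Ad-Control cells, *Qars* in Ad-OSCAR cells (104 TPM, with *Eprs* at 86.9 TPM), and *Mars* and *Eprs* after 5-ASA (110 and 109 TPM).

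OSCAR overexpression downregulated nearly the whole cytosolic set. Of the 20 cytosolic genes, 19 were downregulated at an adjusted p below 0.05 and none was upregulated, where the background share over all genes tested was 32.2% down and 32.7% up. The exception was *Farsa*. The values of the Ad-OSCAR and Ad-Control cultures did not overlap for 19 of the 20, with lower values in Ad-OSCAR, against 34.0% of all genes tested. The median log2 fold change of the cytosolic genes was −0.56 (range −0.99 to 0.00), against 0.022 over all genes tested. Rounded estimated counts were tested by quasi-likelihood in edgeR, and p-values were adjusted over all genes tested by the Benjamini-Hochberg method. An unadjusted p below 0.05 was reached by the same number, 19, and DESeq2 also called 19 down and none up.

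*Tars*, which charges threonine tRNA, had the largest change of the 36 genes. It was at 147, 138 and 136 CPM in the Ad-Control cultures, 66.3, 74.6 and 71.5 CPM in the Ad-OSCAR cultures and 96.0, 108 and 89.6 CPM after 5-ASA. Its 3 groups were separate, with the treated cultures between the other groups. The log2 fold change with OSCAR was −0.99 ± 0.06 (SE; adjusted p = 1.44e-10, edgeR), a 1.98-fold lower level. With 5-ASA it rose by 0.47 ± 0.06 on the log2 scale (adjusted p = 4.63e-05).

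*Eprs*, a fused enzyme that charges both glutamate and proline tRNA, was at 451, 446 and 407 CPM in Ad-Control, 238, 249 and 236 CPM in Ad-OSCAR and 312, 355 and 307 CPM after 5-ASA. This was the highest CPM of any cytosolic member in Ad-Control cells, although *Aars* stood level with it in Ad-OSCAR cells (means of 240 and 241 CPM) and on the length-corrected scale it ranked behind *Sars*, *Gars* and *Nars*. *Iars*, for isoleucine, was at 249, 248 and 230 CPM, then 135, 139 and 133 CPM, and 183, 194 and 173 CPM after 5-ASA. Both genes had 3 separate groups in the same order as *Tars*. Their log2 fold changes with OSCAR were −0.85 ± 0.06 and −0.84 ± 0.05, and those with 5-ASA were 0.43 ± 0.06 and 0.44 ± 0.05 (each with an adjusted p of at most 3.2e-05, edgeR).

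*Gars*, for glycine, the most frequent residue of collagen, was at 267, 257 and 254 CPM in Ad-Control, 146, 160 and 143 CPM in Ad-OSCAR and 215, 233 and 205 CPM after 5-ASA. It combined a fall of 1.73-fold with OSCAR (log2 fold change −0.79 ± 0.05) and the largest rise among the 36 genes with 5-ASA (0.54 ± 0.05). *Vars*, for valine, was at 123, 114 and 126 CPM, then 73.7, 81.3 and 64.6 CPM, and 97.9, 90.8 and 101 CPM after 5-ASA. The groups were again separate, with log2 fold changes of −0.73 ± 0.07 and 0.40 ± 0.07.

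*Hars*, for histidine, behaved differently after the treatment. It was at 77.7, 76.3 and 74.9 CPM in Ad-Control, 46.1, 47.4 and 44.5 CPM in Ad-OSCAR and 46.1, 43.8 and 41.7 CPM with 5-ASA. The log2 fold change with OSCAR was −0.73 ± 0.05, close to that of *Vars*, but treated and untreated Ad-OSCAR cultures overlapped (−0.07 ± 0.05, adjusted p = 0.40, edgeR). *Hars* and *Hars2* lie head to head with overlapping ends on opposite strands, both had estimated counts that were not whole in all 9 cultures, and whether counting used the strand is not given in the sources used here. *Hars2* was at 24.1 to 25.3 CPM in Ad-Control and 24.7 to 26.2 CPM in Ad-OSCAR cells, with overlapping groups.

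**Figure D1:**
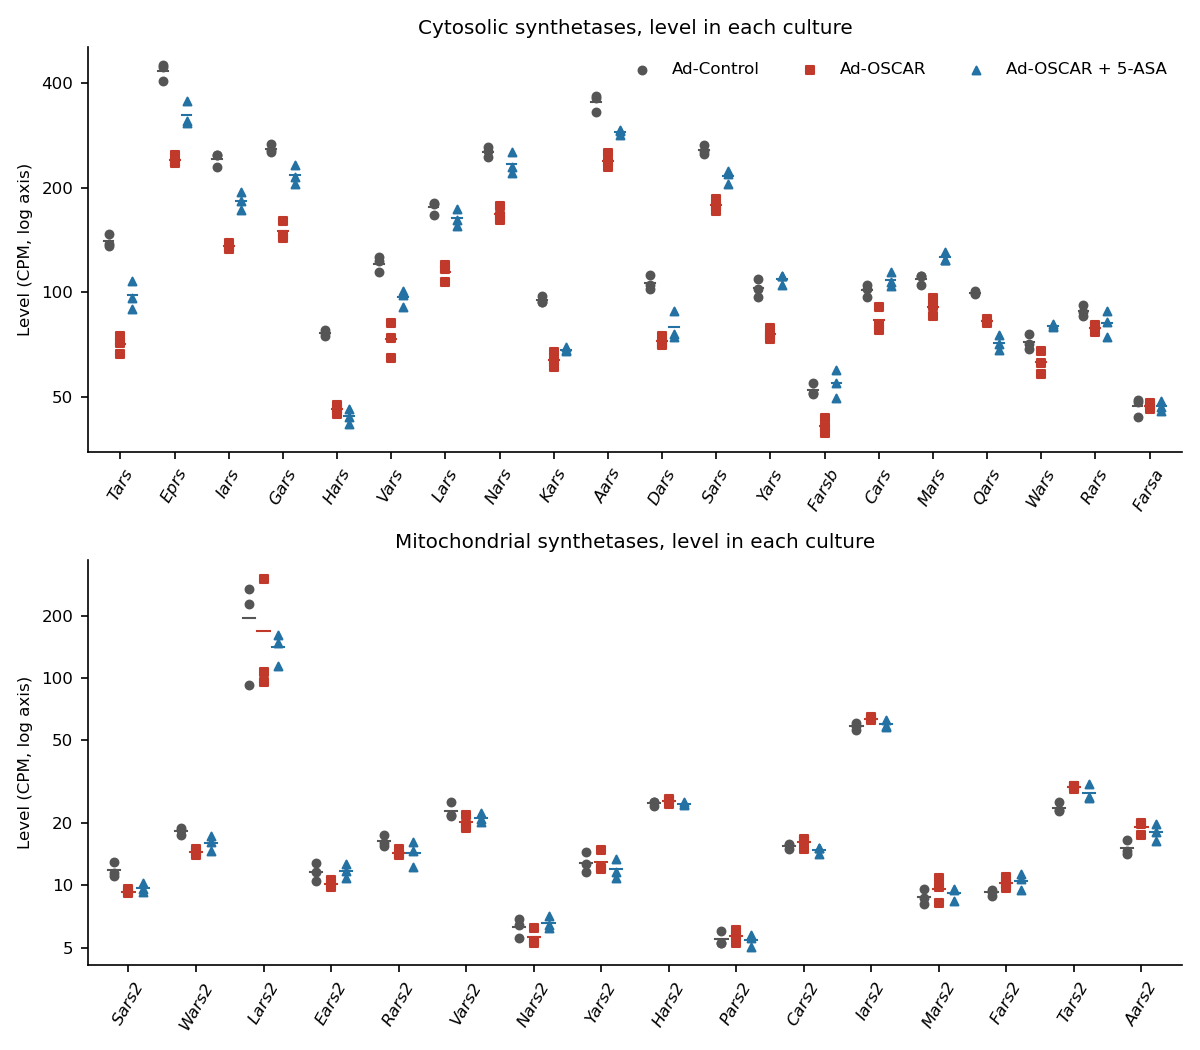
Level of each synthetase gene (CPM, log axis) in each of the 9 cultures, cytosolic genes in the top panel and mitochondrial genes in the bottom panel, ordered by the change with OSCAR. Points are cultures and bars are group means over 3 cultures, where *Tars* at the left falls from 136 to 147 CPM to 66.3 to 74.6 CPM, *Farsa* at the right stays at 43.8 to 49.0 CPM, and *Lars2* is the mitochondrial gene with cultures far apart within groups.

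The other called cytosolic genes fell by less. *Lars*, *Nars*, *Kars*, *Aars*, *Dars* and *Sars* had log2 fold changes from −0.62 to −0.53, *Yars* had −0.44 and *Farsb* −0.35. *Cars*, *Mars*, *Qars*, *Wars* and *Rars* had −0.28, −0.27, −0.27, −0.19 and −0.16. The smallest of these, *Rars* for arginine, had an adjusted p of 0.0199 (edgeR) and was no longer called in 2 of the 9 fits that each left out 1 culture.

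The subunits of the cytosolic phenylalanine enzyme, which works as a complex of both, parted. *Farsa* was at 48.2, 43.8 and 49.0 CPM in Ad-Control, 47.9, 47.1 and 46.1 CPM in Ad-OSCAR and 48.7, 45.5 and 46.8 CPM after 5-ASA, so all groups overlapped. *Farsb* was at 51.0, 54.8 and 51.1 CPM, then 39.2, 43.4 and 40.8 CPM, and 54.6, 59.7 and 49.5 CPM after 5-ASA. The log2 ratio of *Farsb* to *Farsa* (TPM) was 0.07 ± 0.15 (SD, n = 3) in Ad-Control, −0.34 ± 0.10 in Ad-OSCAR and 0.08 ± 0.15 after 5-ASA. Ad-OSCAR cultures lay below both other groups without overlap, and the exact two-sided permutation p was 0.10 for each step, the smallest that 3 against 3 cultures allow. The log2 fold change of *Farsa* with OSCAR lay between −0.01 and 0.02 under every normalization, filter and tool tried.

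5-ASA upregulated 14 of the 20 cytosolic genes in Ad-OSCAR cells (*Aars*, *Cars*, *Eprs*, *Farsb*, *Gars*, *Iars*, *Lars*, *Mars*, *Nars*, *Sars*, *Tars*, *Vars*, *Wars* and *Yars*), where the background share was 10.4% up. It downregulated 1, *Qars*, where the background share was 7.38% down. The treated cultures lay above all untreated Ad-OSCAR cultures for 15 of the 20, against 17.8% of all genes tested. The median log2 fold change was 0.40 (range −0.21 to 0.54), against −0.004 over all genes tested. The comparison shares its Ad-OSCAR cultures with the comparison of Ad-OSCAR and Ad-Control, so the falls and the rises are not independent observations. *Oscar* transcript was lower in the same treated cultures, as given above, and its part in these values was not tested.

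*Gars* and *Yars* rose most. *Yars*, for tyrosine, was at 109, 102 and 96.8 CPM in Ad-Control, 74.8, 79.1 and 73.3 CPM in Ad-OSCAR and 111, 111 and 105 CPM after 5-ASA. The treated cultures were above every untreated one and overlapped with Ad-Control. The log2 fold change with 5-ASA was 0.53 ± 0.05, a 1.44-fold rise (adjusted p = 1.6e-06, edgeR), after −0.44 ± 0.05 with OSCAR.

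*Lars*, for leucine, and *Nars*, for asparagine, followed the same course. *Lars* was at 180, 181 and 167 CPM in Ad-Control, 117, 120 and 107 CPM in Ad-OSCAR and 162, 174 and 155 CPM after 5-ASA (0.52 ± 0.06 with 5-ASA). *Nars* was at 262, 256 and 245 CPM, then 166, 177 and 161 CPM, and 229, 254 and 221 CPM after 5-ASA (0.48 ± 0.05). In both genes the treated cultures were above every untreated Ad-OSCAR culture, and 1 of them lay within the range of Ad-Control.

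*Mars*, for methionine, the amino acid that starts every protein, was at 111, 105 and 111 CPM in Ad-Control, 91.0, 96.4 and 85.3 CPM in Ad-OSCAR and 124, 131 and 124 CPM after 5-ASA. It fell less than most with OSCAR (−0.27 ± 0.05) and rose by 0.47 ± 0.05 on the log2 scale with 5-ASA, so that all treated cultures lay above all Ad-Control cultures. The 3′ end of *Mars* overlaps *Ddit3* on the other strand, which was at 50.2 to 50.6 CPM in Ad-Control, 39.8 to 44.6 CPM in Ad-OSCAR and 37.7 to 40.9 CPM after 5-ASA.

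*Qars*, for glutamine, was the only cytosolic gene called in the opposite direction to the rest with 5-ASA. It was at 101, 98.5 and 99.5 CPM in Ad-Control, 81.7, 81.8 and 83.7 CPM in Ad-OSCAR and 70.9, 68.0 and 75.2 CPM after 5-ASA. The 3 groups were separate and each lower than the one before. The log2 fold changes were −0.27 ± 0.05 with OSCAR and −0.21 ± 0.05 with 5-ASA (adjusted p = 0.00456, edgeR). *Dars*, *Farsa*, *Hars*, *Kars* and *Rars* were not called with 5-ASA, with log2 fold changes from −0.07 (*Hars*) to 0.14 (*Dars*, adjusted p = 0.127).

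**Figure D2:**
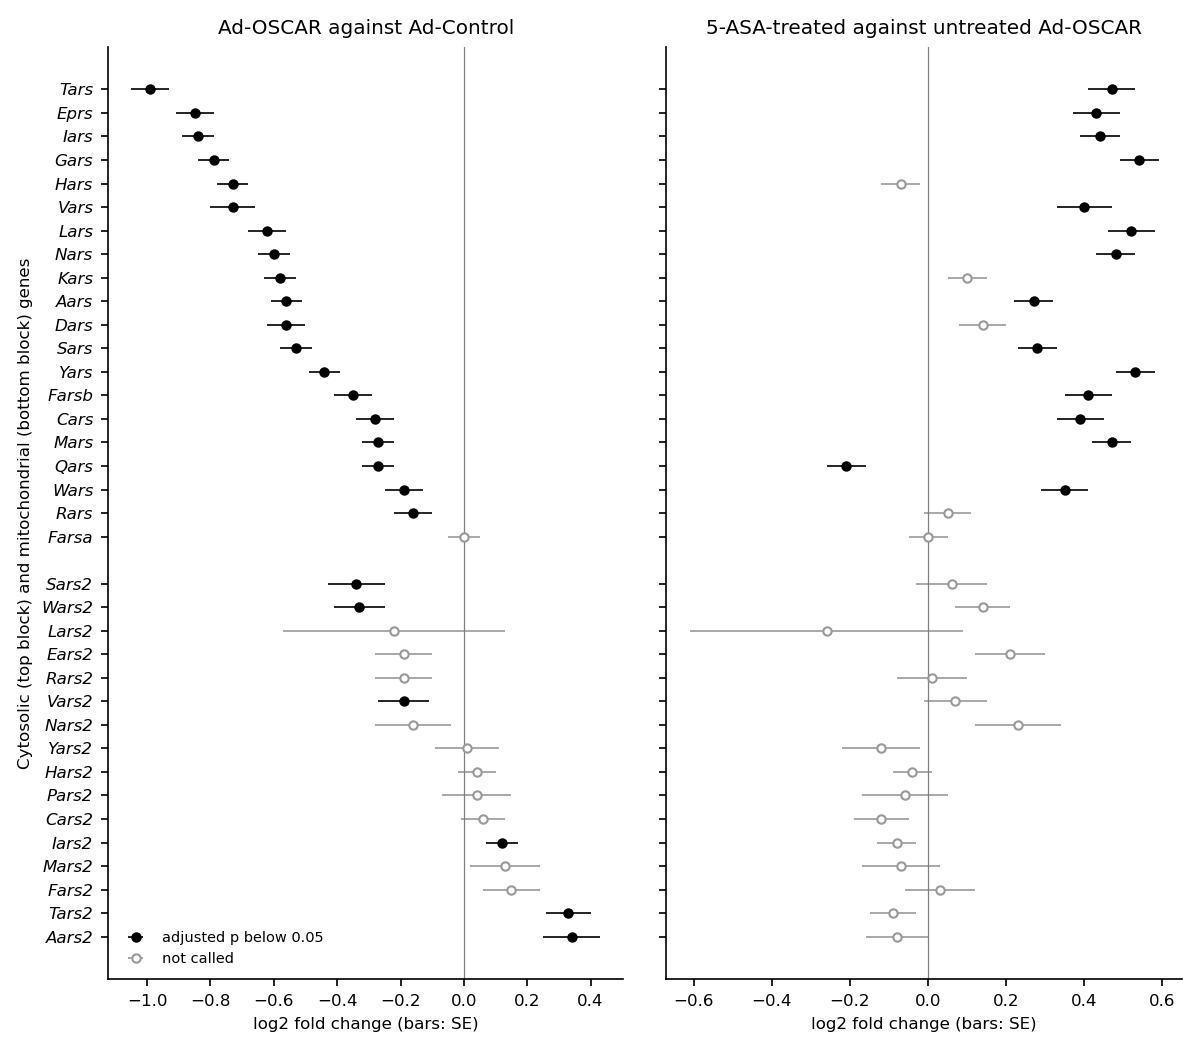
log2 fold change of each of the 36 genes with OSCAR (left) and with 5-ASA in Ad-OSCAR cells (right). Points are edgeR estimates and bars their SE, and filled points had an adjusted p below 0.05. Nearly all cytosolic genes lie left of 0 in the first panel (median −0.56) and most lie right of 0 in the second (median 0.40), while the mitochondrial genes scatter around 0 in both (medians 0.03 and −0.05).

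Treated cells set against Ad-Control cells show how far the levels stood apart from the start. Of the 20 cytosolic genes, 11 were lower than in Ad-Control (*Aars*, *Dars*, *Eprs*, *Gars*, *Hars*, *Iars*, *Kars*, *Qars*, *Sars*, *Tars* and *Vars*, background share 31.8% down), 2 were higher (*Mars* and *Wars*, background share 31.4% up) and 7 were not called. The median log2 fold change was −0.25, against 0.015 over all genes tested. *Hars* was the lowest at −0.80, followed by *Tars* at −0.52 and by *Kars* and *Qars*, both at −0.48. *Mars* at 0.21 and *Wars* at 0.16 were above the Ad-Control level, but *Wars* was lost without Ad-Control culture 2 or 3 (adjusted p = 0.0596 and 0.0851, edgeR). Without treated culture 2, *Lars*, *Nars* and *Rars* were called lower as well (0.00814 to 0.03). With the replicate number as a block *Nars* was called lower too (−0.12, adjusted p = 0.0457). *Cars*, *Farsb*, *Lars*, *Nars*, *Rars* and *Yars* were called down with OSCAR and were not called against Ad-Control after 5-ASA, with log2 fold changes from −0.12 to 0.10, and all of these but *Rars* had been called up with 5-ASA. A p that misses the threshold does not show equal levels.

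Among the cytosolic enzymes known to be held in the multisynthetase complex (*Dars*, *Eprs*, *Iars*, *Kars*, *Lars*, *Mars*, *Qars* and *Rars*), every gene was called down with OSCAR, from −0.85 for *Eprs* to −0.16 for *Rars*, as were 19 of the 20 cytosolic genes and 32.2% of all genes tested. With 5-ASA they split, as *Eprs*, *Iars*, *Lars* and *Mars* rose by 0.43 to 0.52 on the log2 scale, *Qars* fell, and *Dars*, *Kars* and *Rars* were not called. Of the 3 scaffold genes of the complex, *Aimp2* was at 30.4, 29.2 and 31.4 CPM in Ad-Control, 14.1, 13.4 and 12.7 CPM in Ad-OSCAR and 15.0, 15.8 and 15.5 CPM after 5-ASA. The log2 fold change of *Aimp2* with OSCAR was −1.18 ± 0.07, larger in size than that of any synthetase, and with 5-ASA it was 0.20 ± 0.07 (adjusted p = 0.0485, edgeR). *Aimp1* fell with OSCAR (−0.50 ± 0.06) and was not called with 5-ASA (0.01 ± 0.06), and *Eef1e1* was called in neither comparison (0.13 ± 0.08 and 0.18 ± 0.08).

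The core of the DNA element that ATF4 binds together with C/EBP proteins, TGATGNAA (N is any base), was searched on both strands of the promoter window of each gene, 250 bases before to 50 after the transcription start in RefSeq (GRCm38.p6). The search used a single motif, so no other motif overlapped it. A window was at hand for 13 of the 20 cytosolic and 14 of the 16 mitochondrial genes. The motif was found in 5 of the 13 cytosolic windows (38.5%), those of *Aars*, *Gars*, *Iars*, *Tars* and *Yars*, and in 0 of the 14 mitochondrial windows, compared with 4.51% of 27025 genes with a window. A match of letters is a description and does not show a binding site, and an absent match says nothing about the factor.

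The 5 promoters with a match are printed from 150 bases before to 30 after the start, 5′ to 3′ along the gene's strand, because their genes all fell with OSCAR and rose with 5-ASA. That of *Iars2*, the mitochondrial isoleucine enzyme, is added as an example with no match. Capitals mark the motif, read as TGATGNAA or as its reverse complement TTNCATCA. On GRCm38.p6 they are at chr8:111033692-111033871 (plus strand) for *Aars*, chr6:55037851-55038030 (plus) for *Gars*, chr13:49681980-49682159 (plus) for *Iars*, chr15:11399629-11399808 (minus) for *Tars*, chr4:129189753-129189932 (plus) for *Yars* and chr1:185329372-185329551 (minus) for *Iars2*. The window of *Aars* lies inside the gene as GENCODE draws it, which starts further upstream. The same holds for the windows of *Qars* and *Tars2*, which are among those with no match.
Aars: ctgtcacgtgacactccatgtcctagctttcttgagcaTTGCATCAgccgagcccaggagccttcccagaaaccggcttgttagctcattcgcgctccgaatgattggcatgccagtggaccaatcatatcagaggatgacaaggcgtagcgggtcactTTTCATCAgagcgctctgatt
Gars: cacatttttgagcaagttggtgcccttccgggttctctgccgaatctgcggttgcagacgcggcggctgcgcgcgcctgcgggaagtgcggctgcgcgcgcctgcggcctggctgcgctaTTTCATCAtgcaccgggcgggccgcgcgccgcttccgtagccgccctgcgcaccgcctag
Iars: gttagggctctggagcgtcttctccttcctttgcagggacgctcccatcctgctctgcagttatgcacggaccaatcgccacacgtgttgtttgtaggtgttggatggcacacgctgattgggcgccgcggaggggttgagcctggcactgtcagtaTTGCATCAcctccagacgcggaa
Tars: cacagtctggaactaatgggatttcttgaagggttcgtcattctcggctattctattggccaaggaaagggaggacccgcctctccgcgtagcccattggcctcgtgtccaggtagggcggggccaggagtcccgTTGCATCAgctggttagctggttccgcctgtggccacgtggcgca
Yars: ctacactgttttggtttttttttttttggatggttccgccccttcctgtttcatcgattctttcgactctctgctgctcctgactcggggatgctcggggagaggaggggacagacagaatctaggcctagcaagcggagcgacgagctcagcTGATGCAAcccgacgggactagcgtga
Iars2: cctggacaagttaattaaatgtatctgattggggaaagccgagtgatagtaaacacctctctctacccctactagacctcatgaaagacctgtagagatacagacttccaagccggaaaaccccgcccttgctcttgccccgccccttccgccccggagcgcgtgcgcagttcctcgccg

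*Aars* held 2 matches, the first of them 112 bases before the start, *Gars* held 1 that began 30 bases before the start and *Tars* 1 that began 15 bases before it. In *Iars* and *Yars* the match lay just past the start. All 5 genes with a match were called down with OSCAR and up with 5-ASA. Over all genes tested the shares were 32.2% down with OSCAR and 10.4% up with 5-ASA. Of the 20 cytosolic genes, 19 were down with OSCAR and 14 up with 5-ASA. Of the 8 cytosolic genes with a window and no match (*Dars*, *Eprs*, *Farsa*, *Farsb*, *Kars*, *Mars*, *Qars* and *Sars*), 7 were called down with OSCAR and 4 up with 5-ASA. Of the 7 without a window, among them *Hars*, *Lars* and *Nars* on the chromosome left out, 7 were called down and 5 up. The motif thus marked some of the genes that moved, and *Eprs*, *Mars*, *Farsb* and *Sars* rose with 5-ASA without a match in the window.

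Mitochondrial synthetases did not share one direction. With OSCAR, 3 of the 16 were upregulated (*Aars2*, *Iars2* and *Tars2*) and 3 downregulated (*Sars2*, *Vars2* and *Wars2*), shares below the 32.7% up and 32.2% down over all genes tested. The other 10 were not called (*Cars2*, *Ears2*, *Fars2*, *Hars2*, *Lars2*, *Mars2*, *Nars2*, *Pars2*, *Rars2* and *Yars2*). Over the 16 the median log2 fold change was 0.03 (range −0.34 to 0.34). The SE of the mitochondrial genes ran up to 0.12, or 0.35 for *Lars2*, against at most 0.07 for the cytosolic genes, so that small changes were harder to detect.

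*Tars2*, for threonine, was at 22.8, 23.1 and 25.2 CPM in Ad-Control, 30, 30.1 and 29.2 CPM in Ad-OSCAR and 26.7, 26.3 and 30.9 CPM after 5-ASA. *Aars2*, for alanine, was at 14.2, 14.7 and 16.6 CPM, then 20, 19.7 and 17.5 CPM, and 18.1, 16.4 and 19.8 CPM after 5-ASA. In both genes the Ad-OSCAR cultures lay above all Ad-Control cultures and overlapped with the treated ones. The log2 fold changes with OSCAR were 0.33 ± 0.07 (adjusted p = 0.000287) and 0.34 ± 0.09 (adjusted p = 0.00228, edgeR), while their cytosolic counterparts *Tars* and *Aars* fell by 0.99 and 0.56.

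*Sars2*, for serine, was at 13.0, 11.1 and 11.5 CPM in Ad-Control, 9.60, 9.14 and 9.24 CPM in Ad-OSCAR and 9.58, 9.27 and 10.3 CPM after 5-ASA. *Wars2*, for tryptophan, was at 18.5, 18.8 and 17.5 CPM, then 15, 14 and 14.5 CPM, and 16.1, 14.6 and 17.3 CPM after 5-ASA. Ad-OSCAR cultures lay below all Ad-Control cultures in both genes, with log2 fold changes of −0.34 ± 0.09 and −0.33 ± 0.08. *Iars2* (0.12, adjusted p = 0.043) and *Vars2* (−0.19, adjusted p = 0.0392) were near the threshold, and the groups overlapped for *Vars2*. *Iars2* was not called with RLE normalization, no filter or DESeq2 (adjusted p = 0.0628 to 0.131), nor in 6 of the 9 fits that left out 1 culture (0.053 to 0.189, each Ad-OSCAR culture, Ad-Control 1 or 3, or treated culture 1 left out). *Vars2* was lost with DESeq2 (0.0694), with a minimum of 10 counts (0.0516) and without Ad-Control culture 1 or Ad-OSCAR culture 1 or 2 (0.105 to 0.224, edgeR).

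With 5-ASA, 0 of the 16 mitochondrial genes were called in either direction by edgeR's quasi-likelihood test, and 0 by DESeq2, where the background shares were 10.4% up and 7.38% down. At an unadjusted p below 0.05 there was 1, *Ears2* for glutamate (0.21 ± 0.09, adjusted p = 0.115). Log2 fold changes lay between −0.26 and 0.23, with a median of −0.05. Against Ad-Control, treated cells had 2 higher (*Aars2* and *Tars2*) and 2 lower (*Sars2* and *Wars2*) mitochondrial genes, again below the background shares of 31.4% and 31.8%. These calls rested on single cultures, as *Aars2* was lost without Ad-Control culture 1 or 2 or treated culture 3, *Sars2* without Ad-Control culture 1, and *Wars2* without Ad-Control or treated culture 1 or 2 (edgeR, adjusted p = 0.054 to 0.143) and with DESeq2 (0.0819). *Tars2* kept its call in each of these fits.

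Setting each cytosolic gene against the mitochondrial gene for the same amino acid within a culture gave 14 pairs. The log2 ratio of the TPM levels was lower in Ad-OSCAR than in Ad-Control cells for 12 of the 14 pairs, with a median difference of −0.42 (range −1.39 to 0.12), and for 11 of 13 with a median of −0.49 without *Lars*/*Lars2*. The threonine pair *Tars*/*Tars2* shifted most, from 2.00 ± 0.23 (SD, n = 3) to 0.62 ± 0.13, and then to 1.29 ± 0.36 after 5-ASA. *Aars*/*Aars2* went from 3.76 ± 0.24 to 2.76 ± 0.05 and 3.21 ± 0.18, and *Iars*/*Iars2* from 2.38 ± 0.04 to 1.44 ± 0.06 and 2.01 ± 0.06. For these 3 pairs the groups did not overlap in either step, and the exact two-sided permutation p was 0.10, the smallest that 3 against 3 cultures allow.

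Between treated and untreated Ad-OSCAR cells the ratio was higher for 12 of the 14 pairs, with a median difference of 0.36 (range −0.03 to 0.67), and for 11 of 13 with a median of 0.26 without *Lars*/*Lars2*. *Hars*/*Hars2* was lower in Ad-OSCAR than in Ad-Control cells (0.78 ± 0.04 against 1.63 ± 0.15) and stood at 0.75 ± 0.24 after 5-ASA, overlapping with the untreated cells. *Rars*/*Rars2* stayed at 2.19 in all 3 groups. *Nars*/*Nars2* overlapped in both steps on the TPM scale, although *Nars* itself was called in both and *Nars2* in neither. The RSEM length of *Nars2*, which enters TPM, averaged 2955 bases in Ad-OSCAR and 2248 in Ad-Control cells, with overlapping cultures. In CPM the mean log2 ratio of this pair was 5.344 in Ad-Control, 4.902 in Ad-OSCAR and 5.155 after 5-ASA.

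**Figure D3:**
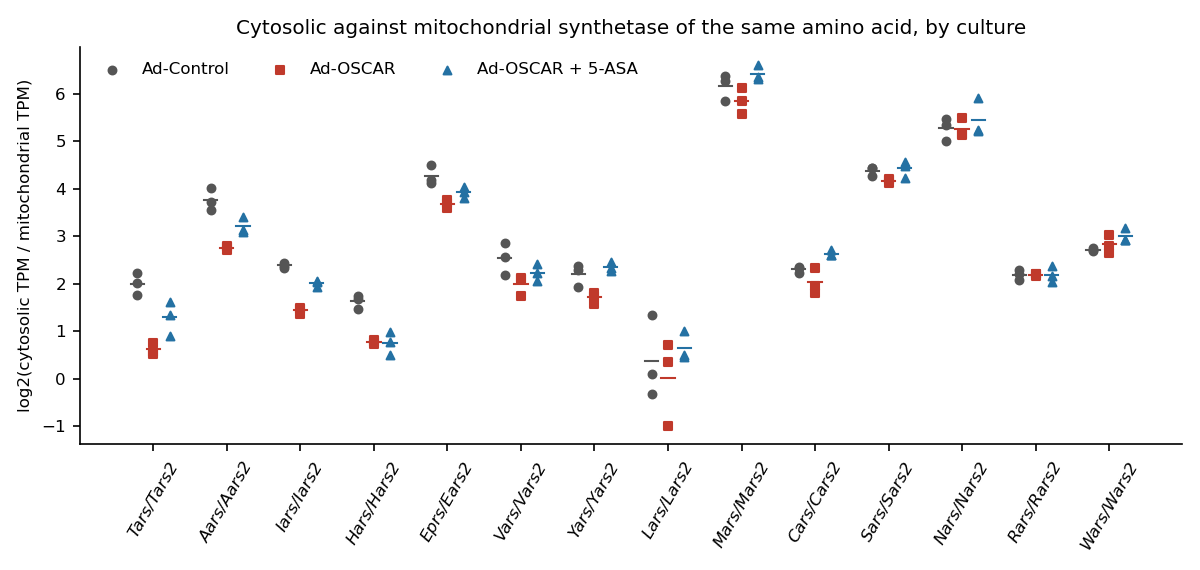
log2 ratio of the cytosolic to the mitochondrial gene (TPM) for the 14 amino acids with both, in each culture. Points are cultures and bars are group means over 3 cultures. Ad-OSCAR cultures lie lowest for *Tars*/*Tars2* (mean 0.62), *Aars*/*Aars2* (2.76) and *Iars*/*Iars2* (1.44), while *Rars*/*Rars2* stays at 2.19 and *Lars*/*Lars2* is scattered within every group.

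*Lars2*, the mitochondrial leucine enzyme, stood apart from the other members. It was at 92.6, 228 and 268 CPM in Ad-Control, 302, 95.7 and 107 CPM in Ad-OSCAR and 114, 161 and 148 CPM after 5-ASA. Cultures of 1 group thus differed more than the groups did, and *Lars2* was not called (OSCAR −0.22 ± 0.35, adjusted p = 0.601, and 5-ASA −0.26 ± 0.35, adjusted p = 0.679, edgeR). Without Ad-OSCAR culture 1 the log2 fold change with OSCAR was −0.95 (adjusted p = 0.0069), and that with 5-ASA was 0.47 (adjusted p = 0.303).

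*AY036118*, annotated on chromosome 17 in a region known to hold sequence of the ribosomal RNA precursor, was at 109, 469 and 459 CPM in Ad-Control, 602, 106 and 147 CPM in Ad-OSCAR and 195, 223 and 245 CPM after 5-ASA. *Gm26917* and *Gm42418* from the same region had their highest values in the same Ad-OSCAR culture, at 95.7 and 59.6 CPM. The choice of these genes was made once their values were known. The culture with most *Lars2* was also highest in all of them, and whether reads of 1 kind reach both was not tested.

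**Figure D4:**
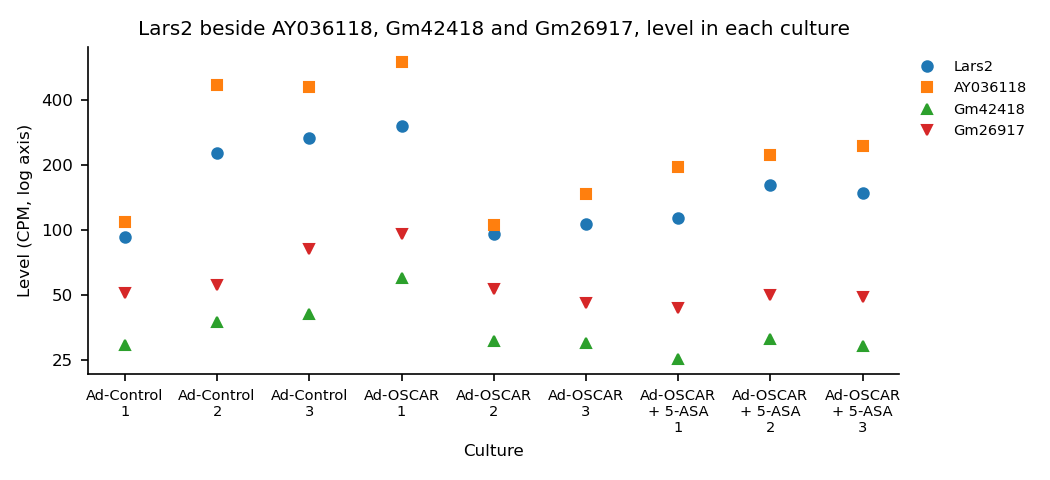
Level (CPM, log axis) of *Lars2*, *AY036118*, *Gm42418* and *Gm26917* in each of the 9 cultures. *Lars2* and *AY036118* are highest in Ad-OSCAR culture 1 (302 and 602 CPM) and low in Ad-Control culture 1 (92.6 and 109 CPM) and Ad-OSCAR culture 2 (95.7 and 106 CPM).

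Genes of the amino acid response moved in both directions with OSCAR. *Atf4* itself was at 385, 379 and 369 CPM in Ad-Control, 319, 334 and 294 CPM in Ad-OSCAR and 445, 461 and 408 CPM after 5-ASA. It fell by 0.26 with OSCAR and rose by 0.47 with 5-ASA on the log2 scale, to above every Ad-Control culture. *Atf5*, a related factor, had log2 fold changes of −0.56 and 0.49. In the list of 20 regulators and targets of this response, 7 were up and 10 down with OSCAR, with a median log2 fold change of −0.16, where the background shares were 32.7% up and 32.2% down. With 5-ASA 10 were up and 2 down, with a median of 0.16 and background shares of 10.4% up and 7.38% down. *Sesn2*, *Ppp1r15a*, *Ddit4* and *Cebpb* rose with OSCAR (0.26, 0.31, 0.41 and 0.83), opposite to the cytosolic synthetases. *Sesn2* and *Ppp1r15a* rose further with 5-ASA (0.28 and 0.18), while *Ddit4* and *Cebpb* were not called (0.14 and −0.36).

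*Asns*, which makes asparagine, was at 192, 177 and 176 CPM in Ad-Control, 88.0, 107 and 83.3 CPM in Ad-OSCAR and 186, 207 and 172 CPM after 5-ASA. *Trib3*, a pseudokinase that restrains ATF4, was at 95.6, 81.4 and 90.1 CPM, then 37.6, 40.1 and 32.8 CPM, and 68.1, 67.0 and 59.4 CPM after 5-ASA. The log2 fold changes were −0.97 and 1.03 for *Asns* and −1.27 and 0.82 for *Trib3*. Treated cultures overlapped with the Ad-Control range for *Asns* and stayed below it for *Trib3*.

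*Chac1*, which degrades glutathione, was at 39.8, 37.9 and 41.6 CPM in Ad-Control, 31.0, 33.7 and 26.7 CPM in Ad-OSCAR and 58.4, 64.1 and 56.4 CPM after 5-ASA (log2 fold changes −0.39 and 0.97). *Nupr1* (−0.99 and 0.82) and *Eif4ebp1* (−0.86 and 0.60), an inhibitor of translation initiation, also fell and rose. *Ddit3*, which encodes the stress factor CHOP, fell by 0.24 with OSCAR and was not called with 5-ASA (−0.10, adjusted p = 0.219, edgeR). *Atf3* ran the other way, from 5.10 to 6.65 CPM in Ad-Control to 17.6 to 20 CPM in Ad-OSCAR and 9.50 to 10.9 CPM after 5-ASA (1.71 and −0.85). The kinases upstream of *Atf4* did not move together, as *Eif2ak3* fell by 0.63 and *Eif2ak4* and *Eif2ak2* rose by 0.25 and 0.31 with OSCAR.

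**Figure D5:**
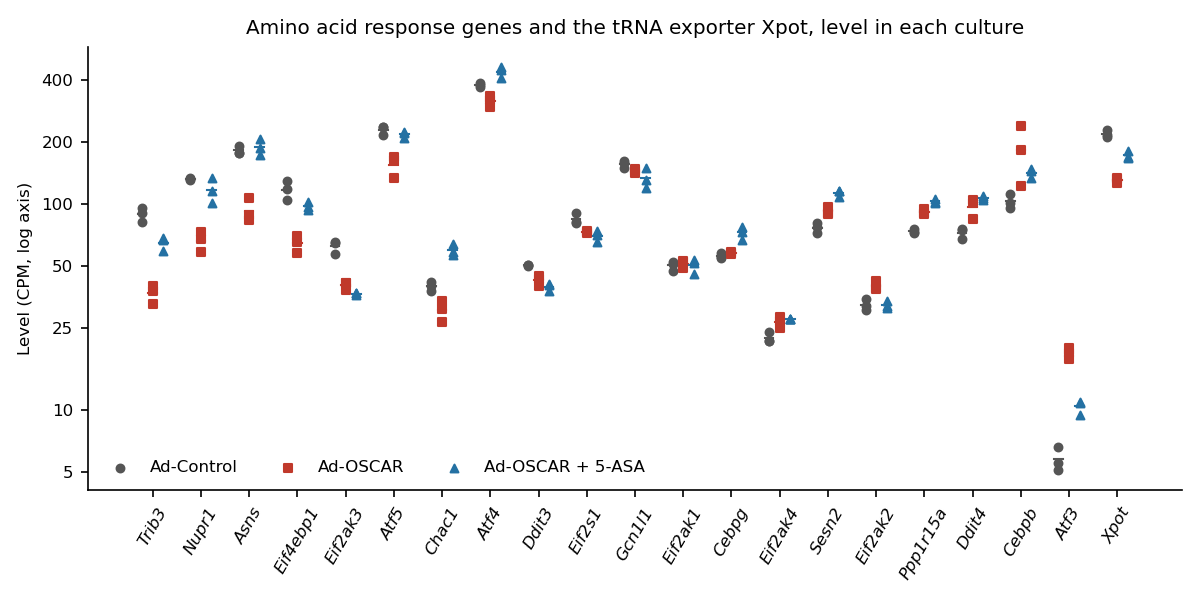
Level (CPM, log axis) of the 20 listed genes of the amino acid response, ordered by the change with OSCAR, and of the tRNA exporter gene *Xpot* in each culture. Points are cultures and bars are group means over 3 cultures. *Trib3* at the left falls to 32.8 to 40.1 CPM in Ad-OSCAR, *Atf3* at the right end of the list rises to 17.6 to 20 CPM, and *Chac1* after 5-ASA (56.4 to 64.1 CPM) lies above Ad-Control.

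Other steps of tRNA use were less uniform. *Xpot*, which exports tRNA from the nucleus, was at 228, 217 and 211 CPM in Ad-Control, 132, 134 and 126 CPM in Ad-OSCAR and 168, 181 and 167 CPM after 5-ASA, with separate groups (−0.75 ± 0.05 and 0.40 ± 0.05). In its list of 7 genes for tRNA export and end processing, 4 were down (*Xpot*, *Elac2*, *Rpp30* and *Pop1*) and 1 up (*Elac1*) with OSCAR, and *Xpot* alone was called with 5-ASA. For these short lists the background shares are again 32.2% down and 32.7% up with OSCAR, and 10.4% up and 7.38% down with 5-ASA. Of 4 partners of mitochondrial charging, *Gatb*, a subunit of the amidotransferase that makes glutaminyl-tRNA in mitochondria, fell by 1.17 ± 0.08 and *Mtfmt*, which formylates the initiator tRNA, rose by 0.41 ± 0.08 on the log2 scale with OSCAR. With 5-ASA the log2 fold changes of these partners lay between −0.14 and −0.02 and did not pass the threshold. Of 8 selenocysteine and editing factors, 3 were down (*Aarsd1*, *Prorsd1* and *Tarsl2*) and 1 up (*Secisbp2*) with OSCAR, and *Secisbp2* was down with 5-ASA. *Tarsl2*, another threonine enzyme of the cytosol, had −0.98 ± 0.09 with OSCAR and was not called with 5-ASA (−0.12 ± 0.10, adjusted p = 0.48).

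The transcript length that RSEM weights by expression is a readout apart from the counts. Of the 36 genes, 1 differed with OSCAR by more than 5% with no overlap between cultures, against 7.52% of all genes tested. It was *Qars*, whose mean length was 1523 bases in Ad-OSCAR cells (1520 to 1527) and 1624 bases in Ad-Control cells (1578 to 1658), a difference of −6.23%. With 5-ASA, where the share over all genes was 4.43%, it was *Vars* alone, at 2634 bases in treated and 2450 bases in untreated Ad-OSCAR cells, a difference of 7.51%. Between treated and Ad-Control cells 4 of the 36 genes passed the same limit, a share near the 8.17% of all genes. They were *Pars2* for proline (2187 against 1879 bases, 16.4%), *Cars2* for cysteine (9.62%), *Ears2* (6.23%) and *Iars2* (6.11%), each longer in treated cells. *Cars2*, *Ears2* and *Iars2* overlap *Naxd*, *Ubfd1* and *Rab3gap2* on the other strand. No test was made on these lengths, and the part of overlapping reads was not tested.

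The study's own criteria for differentially expressed genes set a limit on fold size (a log2 fold change beyond 1.5 for OSCAR, and a fold beyond 1.5 at an unadjusted p below 0.05 for 5-ASA), and per its methods both sets of cells were held against Ad-Control. At these limits, applied to the edgeR values, 0 of the 36 genes passed with OSCAR, against 9.96% of all genes tested. Between treated and Ad-Control cells 1 passed, *Hars* (1.74-fold lower), against 29.9%. With the same limit between treated and untreated Ad-OSCAR cells 0 passed, against 4.15%. The largest fold among the members was 1.98 for *Tars* with OSCAR and 1.46 for *Gars* with 5-ASA. Without a fold limit edgeR called 25 of the 36 with OSCAR, against 9983 of all 15362 genes tested, a share near that of the members. With 5-ASA it called 15 of the 36, against 2732 of all genes tested.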

How the data were processed

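RNA from 9 cultures was sequenced by the authors from stranded mRNA libraries. According to the submitters' processing notes the tools were FastQC, STAR 2.7.1a and RSEM 1.3.1 on GRCm38 (mm10). The deposited files give, per gene, estimated counts that need not be whole and are not scaled to a common total, TPM made by the authors with RSEM, an expression-weighted transcript length, and FPKM (not used here). The length columns are RSEM's other values in the deposited files. Whether the counting used the strand is not given in the sources used here, so genes that overlap another gene on the other strand may hold some of its reads.

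The estimated counts were rounded. Between 8.97% and 10.1% of genes per culture had counts that were not whole. Symbols and positions were taken from GENCODE M21, in which 55144 of 55471 identifiers were found. Counts were tested in R 4.3.3 with edgeR 4.0.16 (TMM normalization, filterByExpr by group, quasi-likelihood F test) in a single model that held all 9 cultures, had no factor but group and left 6 residual degrees of freedom. The filter kept 15362 genes, with a biological coefficient of variation of 5.11%. A gene was called at a Benjamini-Hochberg adjusted p below 0.05 over all genes tested, without a limit on the fold. The SE was obtained by dividing a log2 fold change by the square root of its F value, and CPM are scaled by TMM. Ratios of cytosolic to mitochondrial genes were taken from TPM in each culture and compared with exact two-sided permutation tests. Python 3.11.15 with pandas 2.3.3, scipy 1.17.1 and matplotlib 3.10.9 made the tables and figures.

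The members, the gene lists and the motif were chosen with earlier results of these data known. All 36 members are named. Values in every culture are given for the 6 cytosolic and 4 mitochondrial genes with the largest absolute log2 fold change among those called in each of the comparisons of OSCAR with Control and of 5-ASA with OSCAR, and for *Atf4*, *Ddit3*, *Trib3*, *Asns* and *Chac1* by range or culture. Culture values of *Farsa*, *Farsb*, *Qars*, *Lars2*, *Aimp2*, *Xpot* and the genes beside *Lars2*, and fold changes of other listed genes, were added after their values were seen. Alternatives were RLE normalization, no filter, at least 10 counts in every culture, the compared groups alone, the replicate number as a block, DESeq2 1.42.0, the study's criteria and each culture left out. RefSeq promoter sequences (GRCm38.p6) were matched by symbol, identifier and position, and members on chromosome 18 were left out.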

Additional observations from a re-analysis of the deposited data

How the results depend on the processing

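Over RLE normalization, no filter, a minimum of 10 counts, the compared groups alone, the replicate block and DESeq2, the cytosolic calls kept direction and side of the threshold in 120 of 120 values with OSCAR and in 120 of 120 with 5-ASA. With 1 culture left out in turn they did so in 178 of 180 (*Rars* was lost without Ad-Control culture 2, adjusted p = 0.0798, and without Ad-OSCAR culture 1, adjusted p = 0.0851, edgeR) and in 180 of 180. No called value reversed. The median log2 fold change of the cytosolic genes with 5-ASA ranged from 0.34 to 0.45 and that of the mitochondrial genes from −0.05 to −0.02 with 1 culture left out.

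Mitochondrial calls were less stable. With OSCAR, 89 of 96 values kept their side over the 6 settings and 131 of 144 with 1 culture left out, with *Iars2* and *Vars2* lost in some. *Ears2* was gained without Ad-Control culture 2 (adjusted p = 0.0215), *Rars2* with the compared groups alone (0.0417) and without treated culture 2 or 3 (0.0441 and 0.0355), and *Lars2* without Ad-OSCAR culture 1 (0.0069, edgeR). Without a filter *Lars2* was called in all 3 comparisons (adjusted p = 0.000249 with OSCAR, 1.84e-05 with 5-ASA, which makes 1 mitochondrial gene down with 5-ASA, and 3.89e-18 for treated against Ad-Control cells), and the cause was not tested. Against Ad-Control, treated cells had 1 mitochondrial gene down with DESeq2, and leaving out 1 culture gave 1 to 2 cytosolic genes up, 1 to 3 mitochondrial genes up and 1 to 2 down. Leaving out Ad-Control culture 1 made *Lars2* lower in treated cells than in Ad-Control (−0.81, adjusted p = 0.0398). Without treated culture 2, *Fars2* was called higher (0.25, adjusted p = 0.0286) and *Rars2* lower (−0.28, adjusted p = 0.0134, edgeR) than in Ad-Control. Under the study's fold limits 0 of the 36 genes passed with OSCAR, 0 between treated and untreated Ad-OSCAR cells and 1 (*Hars*) between treated and Ad-Control cells, the last an alternative added after seeing the data.

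The mitochondrial share of the summed TPM was 11.6%, 15.5% and 12.0% in Ad-Control, Ad-OSCAR and treated cells, and 8.15%, 11.6% and 9.18% without *Lars2*, an alternative chosen after seeing the data. With CPM in place of TPM, also chosen then, the median shifts of the pair ratios were −0.45 and 0.34. Replicate numbers did not pair the cultures, as deviations of same-numbered cultures correlated between −0.0724 and 0.0402. With the replicate block edgeR called 9882 genes with OSCAR and 2500 with 5-ASA over all genes, against 9983 and 2732 without, and 25 and 15 of the 36 members, and *Nars* was gained between treated and Ad-Control cells (adjusted p = 0.0457). SE reached 0.12 for the mitochondrial genes other than *Lars2*, which have the lower counts, and 0.35 for *Lars2*, whose cultures lay far apart.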
